A study of Mus musculus with 4 samples.

Results

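Re-expression of wild-type YTHDF2 in *Ythdf2*-knockdown mouse embryonic stem cells (ESCs) was examined by RNA-seq, by setting the library of knockdown cells given the wild-type construct (shYthdf2+DF2WT) against the library of knockdown cells given the empty vector (shYthdf2+EV). These were 2 of the 4 libraries of the experiment. Genes were kept where the mean count over the 4 libraries was at least 50, which left 13995 of 50559 genes. The other libraries were of cells with a scrambled control hairpin plus empty vector (shScram+EV) and of cells with the *Ythdf2* hairpin with YTHDF2 mutated so that it does not bind m6A (shYthdf2+DF2Mut). All 4 came from E14 cells, a mouse ESC line, kept without feeder cells on gelatin in a serum-replacement medium with leukemia inhibitory factor. Per the methods of the study, the hairpins were delivered by lentivirus and stably kept, and the cells carried a tdTomato transgene driven by the *MERVL* promoter. The labels do not say which of the *Ythdf2* hairpins was used. Replicates are mentioned in the methods of the study, but the labels list 1 library for each group, so no difference here has a replicate check, and all intervals cover counting error only.

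YTHDF2 is a cytoplasmic protein that binds N6-methyladenosine (m6A) in RNA through its YTH domain and recruits the CCR4-NOT complex, which shortens poly(A) tails and so starts mRNA decay. In ESC cultures a small share of cells enters the 2-cell-like (2C-like) state, in which genes of the 2-cell embryo, such as the *Zscan4* cluster, are transcribed. Knockdown with rescue is used to ask which RNA levels follow the level of the protein.

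The libraries held between 31533129 and 35742335 counted reads, and 3 reads, taken as the floor, were worth between 0.0835 and 0.0949 CPM, the counts scaled to library size. Mitochondrial genes took 6.75% of the counts in shYthdf2+EV and 6.34% in shYthdf2+DF2WT. All 10 ESC markers passed the filter, and their summed level was 5320 and 5437 CPM in these libraries, while the 8 markers of feeder fibroblasts summed to 11.7 and 11.5 CPM. Of these *Dcn* and *Lum* had 0 reads in every library and *Thy1*, with 296 and 317 reads, had the most. Y-linked genes set the libraries apart. *Ddx3y*, an RNA helicase gene, had 261 reads in shYthdf2+EV and 26 in shYthdf2+DF2WT, against 2 in the scrambled control and 197 with the mutant construct, and *Eif2s3y*, a translation initiation factor gene, had 225 and 35, against 0 and 218. All 3 Y-linked genes of the Y list that passed the filter were more than 2-fold lower in shYthdf2+DF2WT than in shYthdf2+EV, and how this bears on the other genes was not tested.

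The construct was visible in the counts of its own gene. *Ythdf2* (mm39 chromosome 4, 131912227 to 131939567, minus strand) stood at 18.4 scaled CPM in shYthdf2+EV and 233 in shYthdf2+DF2WT, a log2 ratio of 3.66 (95% interval 3.50 to 3.83). It was the largest ratio of all tested genes. The scrambled control stood at 88.8 scaled CPM and the library with the mutant construct at 218. The log2 ratio of shYthdf2+DF2WT to shScram+EV was 1.39, so the level with the wild-type construct was above that of the control. Transcripts of the construct cannot be told apart from those of the endogenous gene. Its paralogs lay on the other side of 0. *Ythdf3* had 172 scaled CPM without and 113 with the wild-type construct, a log2 ratio of -0.61 (-0.69 to -0.53). *Ythdf1* had 167 and 131, a log2 ratio of -0.34 (-0.42 to -0.26). Corrected for GC content and exon length, *Ythdf3* was at -0.33 and *Ythdf1* at -0.36. The nuclear reader *Ythdc1* was lower by a log2 ratio of -0.46 and the helicase reader *Ythdc2* by -0.41. Of 12 m6A readers, 3 were above 0, namely *Ythdf2*, *Prrc2a* at 0.11 and *Igf2bp2* at 0.49. The median of the 12 was -0.16, or -0.07 corrected. *Ythdf3* was the 1 reader at least 1.5-fold lower, and after correction there was none.

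**Figure D1:**
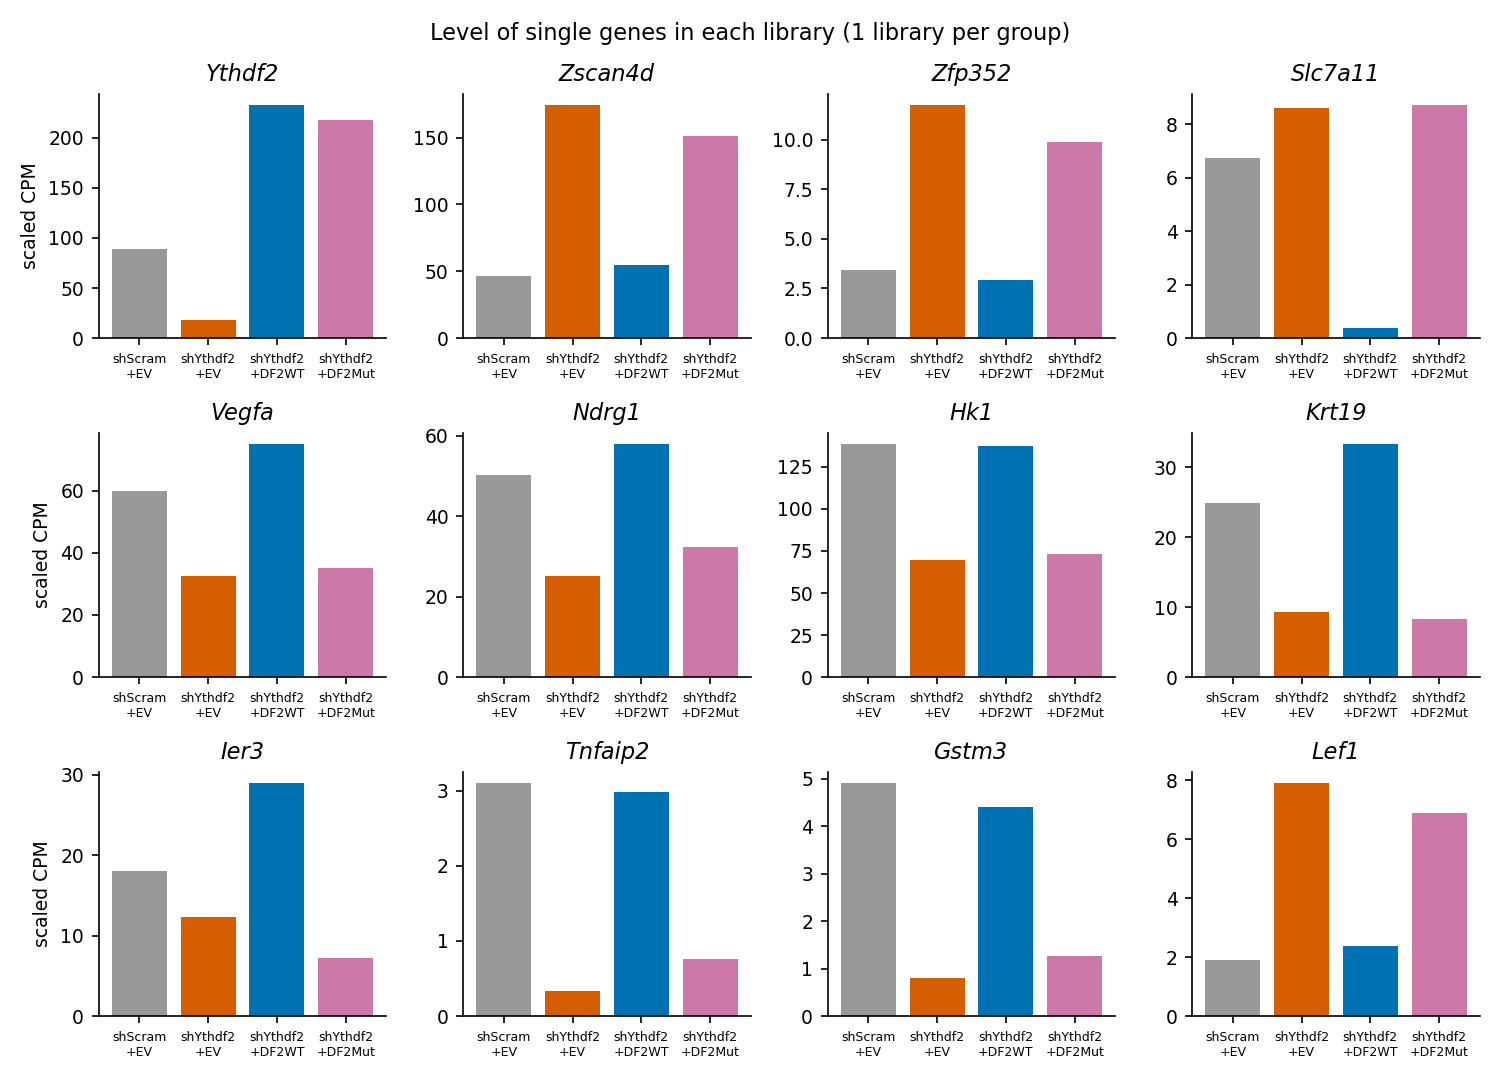
Scaled CPM of 12 genes (y axis, a scale of its own for each gene) in each of the 4 libraries (x axis); each bar is 1 library, so there are no error bars. *Zscan4d*, *Zfp352* and *Lef1* are low in shScram+EV and shYthdf2+DF2WT and high in shYthdf2+EV and shYthdf2+DF2Mut, *Hk1*, *Krt19*, *Tnfaip2* and *Gstm3* show the opposite order, and *Slc7a11* is low in shYthdf2+DF2WT alone.

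Over all tested genes the log2 ratio of shYthdf2+DF2WT to shYthdf2+EV had a median of 0.00 and a standard deviation across genes of 0.45, and 86.3% of genes lay within 1.5-fold. A difference of 2-fold or more was seen in 282 genes that were higher (2.02% of those tested) and 332 that were lower (2.37%), and the counting-error interval left out 0 in 281 and 332 of them. At 1.5-fold the counts were 1040 (7.43%) and 883 (6.31%), and 50.5% of all genes had a ratio above 0 and 49.5% below it. These percentages are the background for the gene lists that follow. The genes past 2-fold were mostly of low counts. Their median mean count was 99.9 reads for the higher and 128 for the lower genes, against 820 for all tested genes, and only 7 of the higher and 23 of the lower genes were among the 6315 genes with a mean of at least 1000 reads. The filter itself did not coincide with a change in scatter, since the standard deviation of the ratio was 0.78 over 272 genes with a mean of 50 to under 55 and 0.80 over 217 genes with a mean of 45 to under 50.

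The higher and lower genes differed in kind. Of the 282 higher genes, 236 were protein coding and 7 were annotated as pseudogenes in RefSeq. Of the 332 lower genes, 211 were protein coding and 64 pseudogenes. Put as shares, 9.48% of the 675 tested pseudogenes and 1.69% of the 12468 tested protein-coding genes were at least 2-fold lower. Genes of the 2-cell lists made up 47 of the 332 lower genes and 0 of the 282 higher genes.

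**Figure D2:**
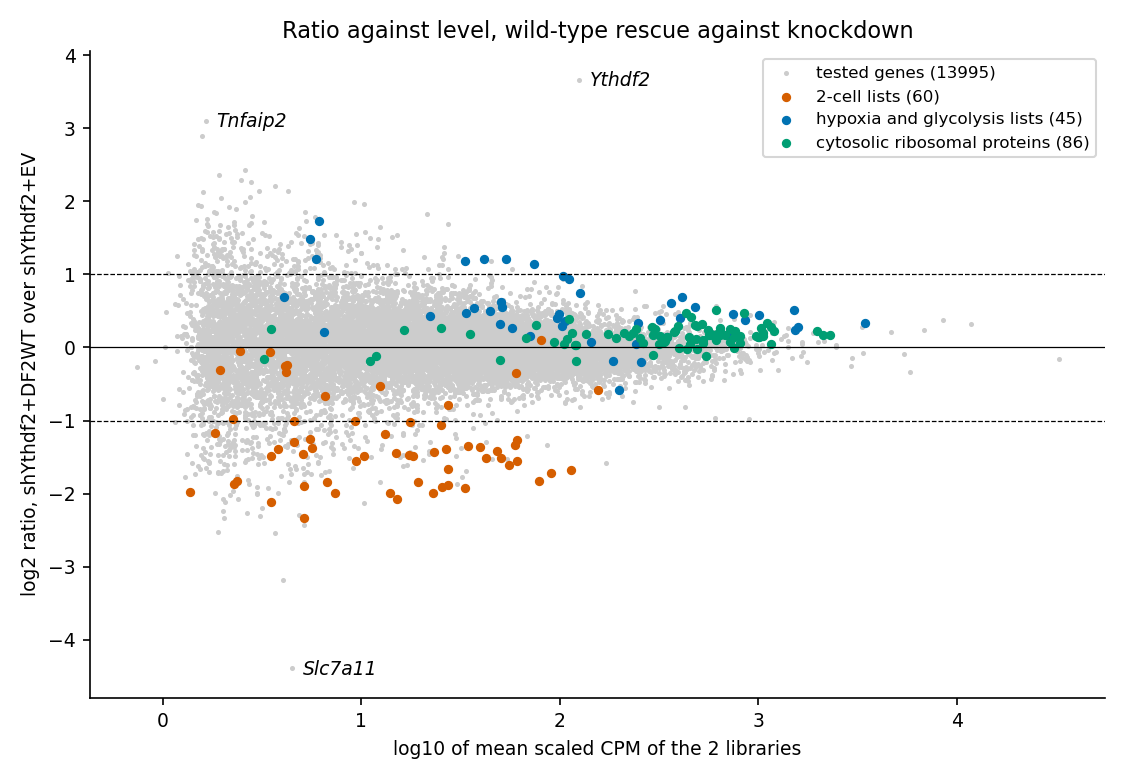
Log2 ratio of shYthdf2+DF2WT to shYthdf2+EV (y axis) against the log10 mean scaled CPM of the same 2 libraries (x axis), 1 point per tested gene, with dashed lines at 2-fold. Genes of the 2-cell lists (60) lie mostly below the lower line, hypoxia and glycolysis genes (45) mostly above 0, and cytosolic ribosomal protein genes (86) in a narrow band above 0.

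The lists with the lowest medians, apart from the Y-linked genes, were those of 2-cell genes. The *Zscan4* cluster, which encodes zinc finger and SCAN domain proteins of the 2-cell embryo, had all 9 tested members at least 2-fold lower with wild-type YTHDF2, with a median log2 ratio of -1.72 and a range from -1.99 in *Zscan4f* to -1.36 in *Zscan4-ps2*. The 9 members summed to 786 CPM in shYthdf2+EV and 243 in shYthdf2+DF2WT, against 231 in the scrambled control and 727 with the mutant construct, so the library with the wild-type construct and the scrambled control were both low. For single genes the reads are given below in the order scrambled control, knockdown, wild-type rescue and mutant rescue, and for *Zscan4f* these were 356, 1315, 302 and 1326.

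The 5 tested *Usp17l* genes, which encode deubiquitinases, lay close together between -1.51 in *Usp17le* and -1.35 in *Usp17lb*. *Tdpoz* and *Tcstv* genes, which are clustered 2-cell genes, had 4 tested members of 11 listed, all at least 2-fold lower, from *Tdpoz3* at -1.84 to *Tcstv3* at -1.26. The *Pramel* family was less uniform. Of its 17 tested members 11 were at least 2-fold lower, and its ratios reached from -2.12 in *Pramel11* (25, 206, 43 and 191 reads) to -0.24 in *Pramel6* and -0.07 in *Pramel3*.

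Among 25 other tested 2-cell genes the median was -1.29, with 18 at least 2-fold lower and 1 above 0. *Spz1*, which encodes a basic helix-loop-helix protein of spermatogenesis, was lowest at -2.33 (34, 310, 56 and 141 reads). *Zfp352*, a zinc finger gene of the 2-cell embryo, had 109, 422, 97 and 314 reads and a ratio of -1.99 (-2.48 to -1.54). At the other end were *Sp110* at -0.30, *Nat8f2* at -0.04 and *Gm4340* at 0.11. *Gm4340* had 1856, 2771, 2733 and 3940 reads and thus did not follow the rest of its list. *Duxf3*, the *Dux* gene of the study, was below the filter. It had 10, 46, 16 and 18 reads and a ratio of -1.37 (-2.77 to -0.18). For shYthdf2+DF2Mut over shYthdf2+EV its ratio was -1.16, so the mutant library was low as well. In bulk RNA fewer 2C-like cells and less 2-cell RNA per cell cannot be told apart. Members of these families are near-identical copies, and how reads were shared among them is uncertain.

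Hypoxia-responsive genes were mostly higher with wild-type YTHDF2. These are genes switched on by the HIF transcription factors when oxygen is low. Of 21 tested members, 19 were above 0, 9 passed 1.5-fold and 5 passed 2-fold, and none was 1.5-fold lower. The median was 0.54, and it was also 0.54 once GC content and exon length had been corrected for. Several of these genes, and several glycolysis genes, carry in their promoters the core of the hypoxia response element, the letters ACGTG or GCGTG on either strand, at which HIF binds. Windows of it, from the RefSeq promoters of GRCm38.p6 and written 5′ to 3′ on the strand of the gene, are shown for those genes of these lists named for a large ratio whose promoter holds it. Capitals mark 1 core in each window, not all of those found, as CACGT or CACGC where it lies on the opposite strand.
Vegfa, chr17:46025365-46025393, minus strand: aagccctggagtGCGTGcccacgtcagag
Adm, chr7:110627555-110627583, plus strand: tttagaagcaagCACGCtggagagggagg
Adm, chr7:110627591-110627619, plus strand: ggcaaatctgacCACGCccaccgtccgcc
Aldoc, chr11:78323011-78323039, plus strand: ccacctctgaggGCGTGgccttaccctag
Aldoc, chr11:78324147-78324175, plus strand: cctcccatccccCACGCtgcatctcttct
Hk1, chr10:62340601-62340629, minus strand: ccgctctctttcCACGCccacttgtgtgc

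The core is short and common. Over windows from 250 bases before to 50 after each start site, 20 of 27 promoters of 18 hypoxia-responsive genes held it (74.1%) and 28 of 35 promoters of 23 glycolysis genes (80.0%), against 7420 of 13403 promoters of tested genes (55.4%) and 12679 of 32851 of all genes (38.6%). These shares follow from the choice of lists and not from the ratios measured here, and promoters were not matched for GC content. A match is a string of letters, not a measured binding site. Whether HIF had a part in the ratios was not tested. The promoters of *Car12* and *Eno2* had no match in the window, and those of *Ndrg1* and *Bhlhe40* were not analysed here.

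Among the hypoxia-responsive members were secreted signals. *Vegfa*, the vascular growth factor, had 32.5 scaled CPM in shYthdf2+EV and 75.0 in shYthdf2+DF2WT, against 59.8 in the scrambled control and 35.1 with the mutant construct, a log2 ratio of 1.21 (1.06 to 1.35). *Adm*, which encodes the peptide adrenomedullin, had 202, 105, 269 and 112 reads and a ratio of 1.48 (1.01 to 1.97). In both genes shScram+EV and shYthdf2+DF2WT were the 2 higher libraries.

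*Car12*, a membrane carbonic anhydrase, had the largest ratio of the list at 1.73 (1.27 to 2.22), from 102 reads in shYthdf2+EV to 311 in shYthdf2+DF2WT. *Ndrg1*, a stress-responsive gene, had 1584, 900, 1905 and 1031 reads and a ratio of 1.21 (1.05 to 1.37). *Bhlhe40*, a transcriptional repressor, had 2971, 1661, 3356 and 1783 reads and a ratio of 1.14 (1.02 to 1.26). Not every member had this order. *Ak4*, a mitochondrial adenylate kinase, had 3819, 8521, 5221 and 8335 reads and a ratio of -0.58 (-0.65 to -0.51), *Kdm3a*, a histone demethylase, was at -0.20 and *Pdk1*, which holds back entry of pyruvate into the mitochondria, at 0.04.

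Glycolysis, which splits glucose to pyruvate, had 23 of 24 tested genes above 0, of which 5 passed 1.5-fold and 2 passed 2-fold, with none 1.5-fold lower. The median was 0.39. Summed over the list, the level was 12613 CPM in shYthdf2+EV and 16260 in shYthdf2+DF2WT, against 14793 in the scrambled control and 13320 with the mutant construct. The top members were brain-type isoforms and the first enzyme of the pathway. *Eno2*, an enolase, had 247, 128, 273 and 138 reads and a ratio of 1.22 (0.78 to 1.67), *Aldoc*, an aldolase, had 1112, 731, 1527 and 764 reads and a ratio of 1.19 (1.01 to 1.37), and *Hk1*, a hexokinase, had 4378, 2512, 4521 and 2337 reads and a ratio of 0.97 (0.87 to 1.08). The lowest were the lactate transporter *Slc16a1* at -0.18, *Ldhb* at 0.07 and *Pgam1* at 0.14. The list had a median GC content of 53.2%, against 49.8% over tested genes, and its median was 0.29 after correction. The neighbouring pathways of energy metabolism lay near 0, with medians of 0.04 for the 20 genes of the tricarboxylic acid cycle, 0.03 for the 47 tested genes of respiratory complex I and 0.06 for 17 genes of ATP synthase.

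**Figure D3:**
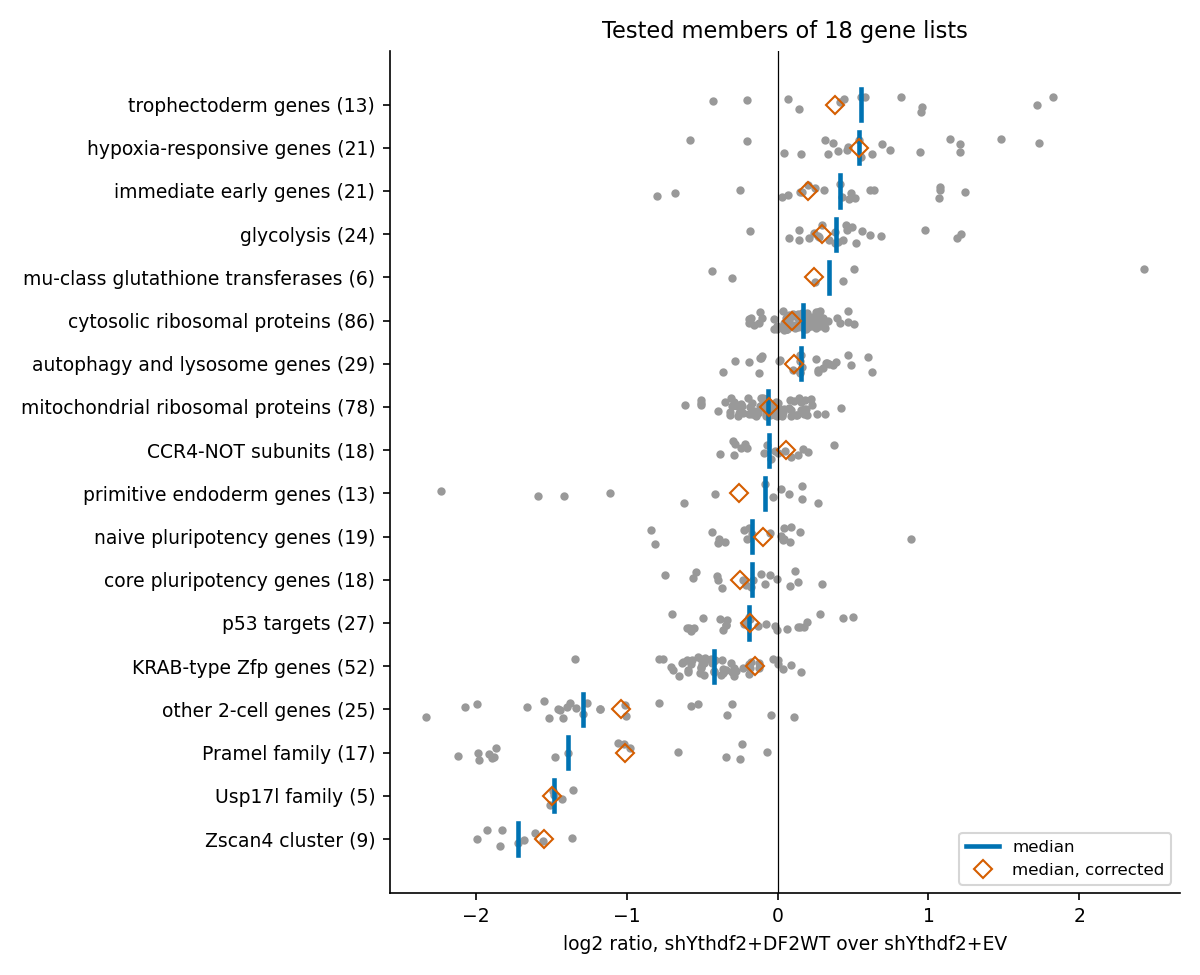
Log2 ratio of shYthdf2+DF2WT to shYthdf2+EV (x axis) of each tested member of 18 gene lists (y axis, number tested in parentheses); grey points are genes, blue bars list medians and orange diamonds medians once corrected for GC content and exon length. Medians run from -1.72 for the *Zscan4* cluster to 0.56 for trophectoderm genes, and the correction brings the KRAB-type Zfp genes from -0.42 to -0.15.

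Trophectoderm genes, expressed in the outer layer of the blastocyst, had the highest median of the lists with at least 5 tested members, 0.56 over 13 tested members of 20 listed, with 5 at least 1.5-fold higher and none 1.5-fold lower. The highest members were keratin genes and the gene of a secreted ligand. *Krt19*, a keratin, had 788, 337, 1097 and 264 reads and a ratio of 1.83 (1.58 to 2.09). *Wnt7b*, a secreted ligand, had 146, 54, 164 and 58 reads and a ratio of 1.72 (1.09 to 2.41), and *Krt8* had 1217, 670, 1193 and 553 and a ratio of 0.96 (0.76 to 1.16). Transcription factor genes of the list lay on both sides of 0. *Eomes* was at -0.20 (-0.42 to 0.01) and *Tfap2a* at -0.43 (-0.92 to 0.05), both with intervals that hold 0, while *Hand1* at 0.82 and *Esx1* at 0.95, chosen after their values were seen, were higher. The 5 defining markers of trophectoderm summed to 25.4 CPM in shYthdf2+EV and 25.1 in shYthdf2+DF2WT. *Cdx2* had 11 and 10 reads, *Elf5* 4 and 28, *Gata3* 30 and 46 and *Krt7* 26 and 74, so that of the 4 markers below the filter 3 had more reads with the wild-type construct. Their part in the result was not tested. The list had a high GC content, with a median of 56.4%, and its median was 0.38 after correction.

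Immediate early genes, which respond within minutes to growth factors and stress, had 18 of 21 tested members above 0, a median of 0.42, 6 past 1.5-fold upward and 2 past it downward. *Fos* had 3623, 1323, 2551 and 829 reads and a ratio of 1.07 (0.94 to 1.21), *Ier3* 572, 441, 954 and 228 reads and a ratio of 1.24 (1.01 to 1.48), and *Zfp36*, whose product promotes decay of AU-rich mRNAs, was at 1.08. *Myc* (286, 861, 452 and 765 reads) was lower at -0.80 (-1.04 to -0.57), and *Fosb* was at -0.68. The list median was 0.20 after correction.

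The lowest ratio of all tested genes was that of *Slc7a11* (mm39 chromosome 3, 50319385 to 50403947, minus strand), which encodes the cystine-glutamate exchanger. Its reads were 213, 309, 13 and 277, and its log2 ratio was -4.39 (-5.84 to -3.33). The shYthdf2+DF2WT library was therefore far below all 3 others, the scrambled control included. Lists that hold this gene did not share its position. The 24 tested NRF2 and glutathione genes had a median of 0.05 (-0.02 corrected) with 1 member, *Slc7a11*, at least 1.5-fold lower, and the 22 tested ATF4 stress and amino-acid supply genes a median of -0.01 (-0.11 corrected), with the amino-acid transporters *Slc7a3* at -0.53 and *Slc38a2* at -0.49 and the enzyme gene *Pck2* at 0.75.

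The largest ratios above 0 after *Ythdf2* were found in genes of low counts. *Tnfaip2*, a gene induced by tumor necrosis factor, had 98, 12, 98 and 24 reads and a ratio of 3.10 (1.93 to 4.67). *Gstm3*, a mu-class glutathione transferase, had 155, 29, 145 and 40 reads and a ratio of 2.43 (1.62 to 3.37). *Pgc*, which encodes a pepsinogen, had 84, 22, 106 and 35 reads and a ratio of 2.37 (1.44 to 3.48). *Gm35145*, *Prr5l*, *Ceacam16*, *Myl7*, *Muc2* and *Pde4c* lay between 2.15 and 2.90, each with more reads in shScram+EV and shYthdf2+DF2WT than in the other libraries. Other mu-class members were spread around 0, from *Gstm1* at 0.51 to *Gstm5* at -0.43.

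Among genes with a mean of at least 1000 reads, the highest ratios after *Ythdf2* were those of *Ndrg1*, *Vegfa* and *Aldoc*, followed by *Mt1* at 1.18, which encodes a metal-binding metallothionein (1465, 986, 2043 and 699 reads). *Gadd45b*, a stress-responsive gene, was at 0.99 and *Tns1*, a focal adhesion gene, at 0.96. The lowest ratios in this class were those of *Zscan4* genes and of unnamed genes, with *Zscan4-ps1* at -1.92 and *Gm7957* at -1.87. Low ratios outside the 2-cell families included *Dcc*, a netrin receptor gene, which had 43, 292, 54 and 246 reads and a ratio of -2.30 (-2.96 to -1.71), and *Plcb1*, a phospholipase gene, at -2.26 (-3.18 to -1.47).

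Several signalling lists had single members far below the list's median. In the WNT pathway (24 tested, median -0.14, or -0.20 corrected), the transcription factor gene *Lef1* had 60, 284, 78 and 219 reads and a ratio of -1.73 (-2.29 to -1.22), and the feedback inhibitor *Axin2* was at -0.76, while *Tcf7*, the paralog of *Lef1*, was at 0.38. In the Notch pathway (17 tested, median 0.01, or -0.15 corrected), the coactivator gene *Maml2* was at -1.87 (-2.69 to -1.14) and the ligand gene *Dll1* at -1.25 (-1.75 to -0.78), with *Jag2*, another ligand gene, at 0.59. Both lists thus had members on both sides.

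In the Nodal and BMP pathway (26 tested, median -0.21, or -0.08 corrected), the activin antagonist *Fst* had 59, 231, 70 and 188 reads and a ratio of -1.59 (-2.19 to -1.04). The Nodal antagonist *Lefty1* was at -0.87 and *Id3*, a BMP target, at -0.78, while *Id1*, another BMP target, was at 0.37. In the FGF-ERK pathway (29 tested, median -0.07, or -0.01 corrected), the feedback inhibitors *Spry4* at -0.71, *Dusp4* at -0.55 and *Dusp6* at -0.52 were the 3 lowest. The receptor gene *Fgfr3* was highest at 0.96. Of 27 tested p53 targets, 8 were above 0, the median was -0.19, and *Perp* at -0.70, *Plk2* at -0.60 and *Pmaip1* at -0.59 were at least 1.5-fold lower.

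Pluripotency genes were within 1.5-fold in most members. Of 18 core pluripotency genes, 4 were above 0, with a median of -0.17 (-0.25 after correction) and 1 member at least 1.5-fold lower, *Dppa2* at -0.74 (-0.81 to -0.68), whose product is a chromatin factor upstream of 2-cell genes. *Pou5f1* was at 0.08 (-0.11 corrected), *Sox2* at 0.13 and *Nanog* at -0.08. Among 19 tested naive pluripotency genes the median was -0.17 (-0.10 corrected, and -0.11 at a mean count of at least 10). *Gbx2* was at -0.84, *Jam2* at -0.81 and, at the other end, *Tcl1*, an AKT coactivator, at 0.89 (2057, 1136, 1924 and 1119 reads).

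Primitive endoderm genes, of the extraembryonic yolk sac lineage, had a median of -0.09 (-0.26 corrected, and -0.25 without chromosomes 12, Y and mitochondrial) over 13 tested members, of which 4 were at least 2-fold lower and none 1.5-fold higher. The endocytic receptor genes *Cubn* (18, 120, 23 and 63 reads) at -2.23 and *Dab2* (99, 237, 81 and 265 reads) at -1.42 were among the lowest, whereas the laminin genes *Lama1* at 0.16 and *Lamb1* at 0.27 were highest. The 6 defining markers of this lineage summed to 22.7 CPM in shYthdf2+EV and 12.5 in shYthdf2+DF2WT, with *Gata6* at 163 and 69 reads and *Sox17* at 42 and 16. Whether a few differentiated cells account for these values was not tested.

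Genes of mRNA deadenylation and decay and of m6A deposition were mostly close to their level in the knockdown. None of the 18 CCR4-NOT and associated deadenylation genes (median -0.06, or 0.06 corrected) or 14 m6A writers and erasers (median -0.06, or 0.05 corrected) reached 1.5-fold in either direction. The same held for 20 decapping and 5′ decay genes (median 0.02) and 15 tested RNA exosome genes (median -0.09). The outermost genes of these lists were *Btg2*, which brings CCR4-NOT to mRNAs, at -0.38 and the decapping gene *Dcp1b* at 0.48 (-0.01 to 0.98). Of 25 tested genes of nonsense-mediated decay and RNase P (median -0.05), 1 was at least 1.5-fold lower, at -0.63, and after correction there was none.

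Cytosolic ribosomal protein genes lay close to 0, mostly above it. Of 86 tested genes, 75 were above 0 and none was 1.5-fold apart. The median was 0.17 (0.10 after correction), and they reached from *Rpl29* at -0.19 to *Rps14* at 0.51, where *Rps14* had 16576, 18045, 23511 and 11651 reads. The shYthdf2+DF2Mut library was the lowest for this list, at a summed 32578 CPM against 41524 in shYthdf2+EV and 47057 in shYthdf2+DF2WT. The 78 mitochondrial ribosomal protein genes had a median of -0.06. Of the mitochondrially encoded genes, the ribosomal RNAs *mt-Rnr1* and *mt-Rnr2* were lower at -0.96 and -0.98, and 13 others lay between -0.36 (*ND6*) and 0.33 (*COX2*).

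Genes of KRAB-type zinc finger proteins numbered in the 900s, DNA-binding proteins many of which repress retroelements, were mostly below 0. Of 52 tested members, 5 were above 0 and 11 were at least 1.5-fold lower, with a median of -0.42, and *Zfp947* was lowest at -1.34 (-1.92 to -0.80). Their exons had a median GC content of only 38.6%. After correction the median was -0.15 and 1 member, *Zfp947*, remained at least 1.5-fold lower. SR splicing factors, with a GC content of 44.9%, went from -0.12 to 0.06 under the same correction.

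Other regulators differed in single members. In Polycomb repressive complex PRC2 (13 genes, median -0.07, or 0.06 corrected), *Ezh1*, a catalytic subunit gene, was at 0.74 and *Phf19* at 0.80. Both were at least 1.5-fold higher. In the germline and meiosis list (25 tested, median -0.10, or 0.10 corrected), the cohesin gene *Smc1b* at 0.86 (1638, 730, 1210 and 819 reads), the synaptonemal complex gene *Sycp3* at 0.85 and *Stra8*, a meiotic entry gene, at 0.71 were the highest. Of 18 tested interferon and RNA-sensing genes (median 0.12, or 0.03 corrected), the oligoadenylate synthetase family genes *Oasl1* at 1.53 (152, 63, 167 and 52 reads) and *Oas1a* at 1.02 were highest and *Ifit2* was lowest at -0.71. In the autophagy and lysosome list 22 of 29 tested genes were above 0, with a median of 0.16 and the lysosomal genes *Npc2* at 0.63 and *Ctsb* at 0.60 in front. Of 71 lists with at least 5 tested members, 43 had a median within 0.1 of 0, 9 above 0.1 and 19 below -0.1.

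The same lists can be read in the comparisons next to this one. These share libraries with it, so their signs are not independent, and only each comparison's own medians are given. For the *Zscan4* cluster the median was 1.79 in shYthdf2+EV over shScram+EV, -1.72 in shYthdf2+DF2WT over shYthdf2+EV and -0.14 in shYthdf2+DF2Mut over shYthdf2+EV. For hypoxia-responsive genes these medians were -0.42, 0.54 and 0.26, for glycolysis -0.23, 0.39 and 0.05, for immediate early genes -0.26, 0.42 and -0.12 and for trophectoderm genes -0.54, 0.56 and -0.10. For ribosomal protein genes they were 0.20, 0.17 and -0.45, and for KRAB-type Zfp genes 0.12, -0.42 and 0.10.

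**Figure D4:**
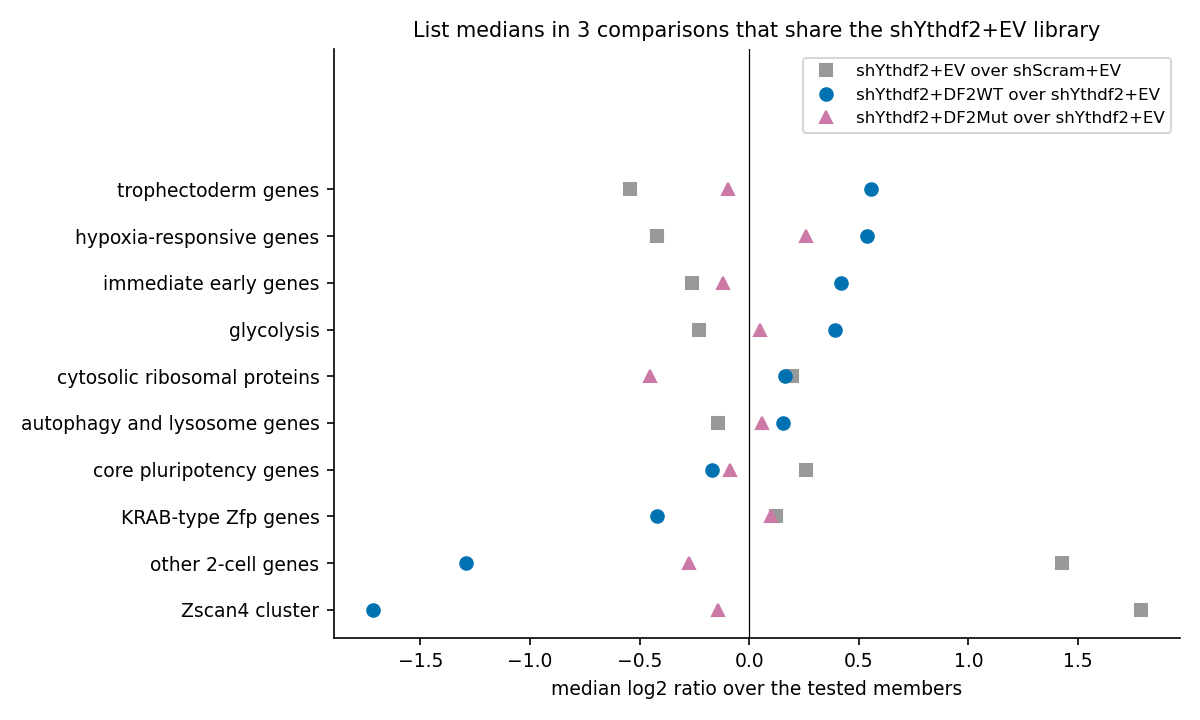
Median log2 ratio over the tested members (x axis) of 10 gene lists (y axis) in 3 comparisons, each between single libraries and all sharing shYthdf2+EV. The medians of the *Zscan4* cluster are 1.79 (grey square), -1.72 (blue circle) and -0.14 (purple triangle), and those of cytosolic ribosomal proteins are 0.20, 0.17 and -0.45.

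GC content went with the ratio across the whole transcriptome. GC content was available for 13473 tested genes (96.3%), and these were split into quintiles. From the lowest to the highest quintile, with median GC contents from 41.4% to 57.8%, the median log2 ratio was -0.19, -0.06, 0.02, 0.10 and 0.17, and the share of genes above 0 went from 23.5% to 71.5%. The difference between the outer quintiles was 0.36 on the log2 scale. Spearman's coefficient across genes was 0.39, where genes are not independent replicates. Genes at least 2-fold higher numbered 13 in the lowest and 112 in the highest quintile, and genes at least 2-fold lower 97 and 24. The higher genes had a median GC content of 54.7%, the lower genes 45.7% and all tested genes 49.8%.

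Exon length went with the ratio more weakly. From the shortest quintile (median 1272 bases) to the longest (9726 bases), the median log2 ratio was 0.06, 0.04, 0.01, -0.03 and -0.06, a difference of -0.12, with a Spearman coefficient of -0.12. GC content and length are themselves related, so each was examined within quintiles of the other. Within the quintiles of length, from short to long, the highest GC quintile exceeded the lowest by 0.23, 0.34, 0.35, 0.39 and 0.42. Within the quintiles of GC content, from low to high, the longest genes differed from the shortest by -0.12, -0.10, -0.08, -0.03 and 0.07, so that the sign of the length difference was not the same in GC-rich genes.

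**Figure D5:**
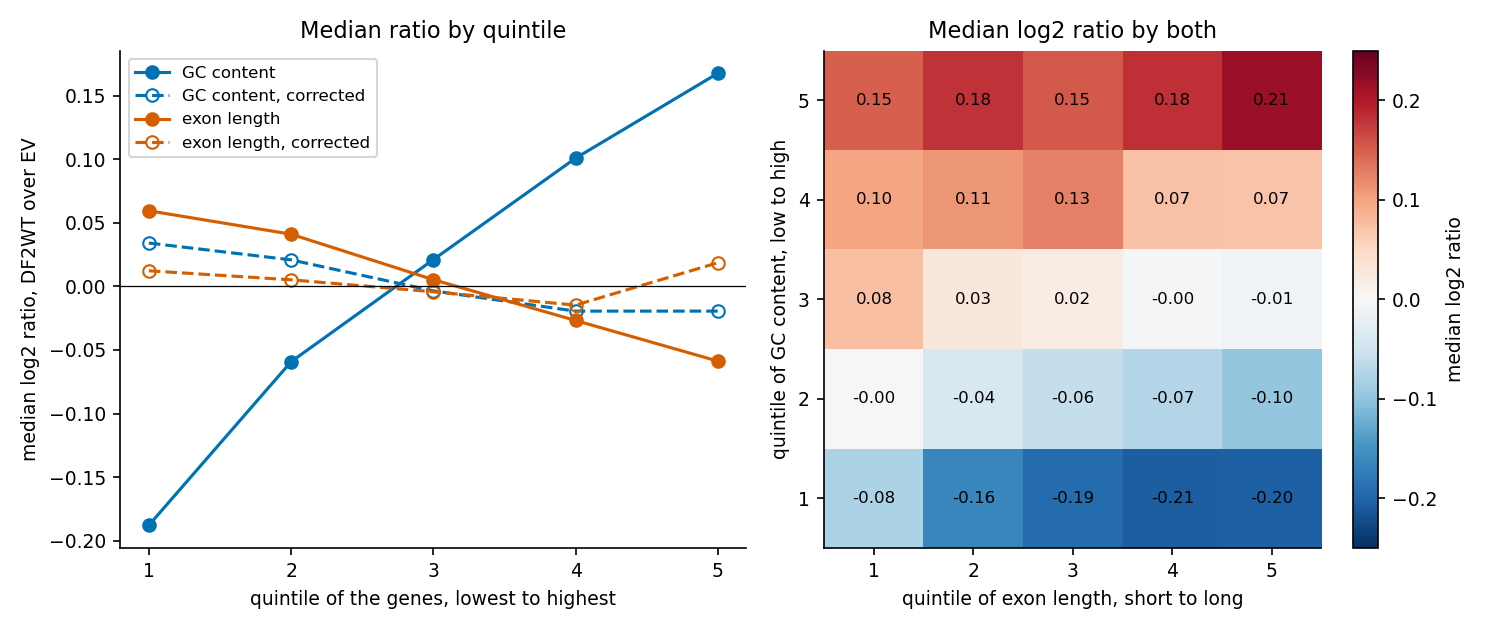
Left, median log2 ratio of shYthdf2+DF2WT to shYthdf2+EV (y axis) by quintile of the tested genes (x axis), ordered by GC content (blue) or exon length (orange), before (filled) and after (open) correction for both. Right, the same median for each combination of GC quintile (y axis) and length quintile (x axis); the GC medians run from -0.19 to 0.17, and within every length quintile the highest GC quintile is above the lowest.

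Related properties differed less than GC content did. From the shortest to the longest quintile of 3′ UTR length, the median went from 0.08 to -0.09 over 10366 genes, with a Spearman coefficient of -0.20, a wider span than that of exon length, and it was 0.00 in both outer quintiles once GC content and exon length had been corrected for. Coding length had a Spearman coefficient of -0.03. The density of GGACT, the most frequent form of the m6A consensus, went with medians from -0.03 in the lowest to 0.07 in the highest quintile before correction and 0.00 and 0.01 after it. A match to these letters does not show that a site is methylated.

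A smooth fit on GC content and log10 exon length took 11.9% of the variance of the log2 ratio. After it, 221 genes (1.64%) were 2-fold or more higher and 245 (1.82%) lower among the 13473 genes with a GC value. Of the higher genes with a GC value 195 of 258 were still at least 2-fold higher, and of the lower genes 224 of 280. The *Zscan4* cluster kept all 9 members at least 1.5-fold lower, and hypoxia-responsive genes had 8 members at least 1.5-fold higher and 1 lower after it. Whether the GC trend came from the cells or from library preparation cannot be told apart with 1 library per group. The trend was not of the same size in the neighbouring comparisons. The difference between the outer GC quintiles was -0.04 for shYthdf2+EV over shScram+EV, -0.14 for shYthdf2+DF2Mut over shYthdf2+EV and 0.33 for shYthdf2+DF2WT over shScram+EV, the last of which also holds the shYthdf2+DF2WT library.

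By chromosome, the median log2 ratio lay between -0.08 (X) and 0.05 (7) on all autosomes and X except chromosome 12, where it was 0.19 over 551 genes, or 0.22 after correction. On chromosome 12, 15 genes were 2-fold higher, 2.72% of its tested genes against 2.02% of all tested genes. Its 2-fold lower genes were 26 of 551, against 332 of 13995 (2.37%) over all tested genes. Leaving out chromosomes 12, Y and the mitochondrial genome left 267 higher and 303 lower genes.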

How the data were processed

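Poly(A)+ RNA-seq counts of 4 libraries, 1 per group, were deposited by the authors as 1 table. Per the file headers they are featureCounts 2.0.3 read counts per gene symbol on mm39 RefSeq exons, of reads and not pairs, without strand, so overlapping and antisense genes are uncertain. The submitters' notes name fastp 0.19.4, HISAT2 2.2.1, DESeq2 1.40.2 and mm10, a build other than that of the table. Ratios are log2 of TMM-scaled counts (edgeR 4.0.16, R 4.3.3) with a prior count of 0.5. No p-value was computed. Intervals are 95% Clopper-Pearson on reads divided by 2. PCR reads are not independent molecules, so intervals and floors cover counting error only.

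Exon length came from the table and GC content from the longest GENCODE vM21 transcript of the symbol. The correction subtracted natural splines (4 degrees of freedom each) of GC content and log10 exon length. Named genes were the readers, the study's 2-cell and pluripotency genes, the 10 highest and 10 lowest ratios at mean counts of at least 50 and of at least 1000, and up to 3 members at each end of a described list. Members, the 74 lists and tests were chosen with earlier results of these data known. Ratios, intervals and the correction were tested on simulated data. Alternatives were DESeq2 1.42.0, total and upper-quartile scaling, TMM on the compared libraries, a prior count of 5, mean-count minimums of 10, 200 and above 0, and sets of genes left out.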

Additional observations from a re-analysis of the deposited data

How the results depend on the processing

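No paired analysis was possible because each group had 1 library and no result came from a test. Of 1230 recomputed values of 122 results, 1096 moved by less than counting error or, for counts, by less than 1.5 times, 131 moved by more, and 3 with a main value of at least 0.1 turned sign. Counting values nearer 0, 38 had another sign, 21 of them when GC content and exon length were corrected for (20 list medians and *Pou5f1*). The filter decided the number of genes. At 2-fold it gave 957 higher and 1038 lower genes at a mean count of at least 10, 72 and 114 at 200 and 4399 and 4920 above 0, and at 1.5-fold 2259 and 2071, 442 and 385, and 6448 and 6569. Scaling moved the share of higher genes among those past 2-fold little, between 45.4% and 48.9%. Without pseudogenes and 2-cell lists, an alternative chosen after seeing the data, 219 genes were 2-fold lower and 274 higher, so the higher genes were then 55.6% of those past 2-fold, against 45.9%. The GC difference was 0.37, 0.34 and 0.33 at the 3 minimums and 0.33 with length corrected. The length difference was -0.054 above 0, -0.13 without chromosomes 12, Y and mitochondrial, -0.13 without pseudogenes and 2-cell lists, and -0.033 with GC content corrected. Under correction for both, medians were -1.55 for the *Zscan4* cluster, -1.04 for other 2-cell genes, 0.10 for ribosomal proteins, 0.29 for glycolysis, 0.20 for immediate early and 0.38 for trophectoderm genes, and the 3 that turned from at least 0.1 in size were SR splicing factors at 0.060, ubiquitin E3 and cullin genes at 0.00047 and X-linked homologs of Y genes at 0.030. Other 2-cell genes were at -1.01 above 0 and without chromosomes 12, Y and mitochondrial. Ribosomal proteins were at 0.16 (DESeq2), 0.17 (total) and 0.19 (upper quartile), glycolysis at 0.41 (upper quartile), hypoxia-responsive genes at 0.47 (minimum 200), and immediate early genes at 0.28 (minimums of 10 and above 0) and 0.36 (without those chromosomes). The cause of these moves was not tested. Depth limits the low genes: the median interval reached 0.20 to each side.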

Other observations

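Chromatin and cell-structure lists not described above held single members apart from 0. Among 25 H3K9 methylation and silencer genes (median -0.15, or -0.09 corrected), *Zfp809*, which recruits silencing to retroviral DNA, was at -0.59. *Atrx* was at -0.55 and the corepressor *Rcor1* at 0.53. No member of this list was 1.5-fold lower after correction. Among 28 tested imprinted genes (median -0.13), *Mest* had 2714, 5173, 2866 and 5210 reads in the scrambled control, knockdown, wild-type rescue and mutant rescue and a log2 ratio of -0.72, while the maternally expressed *Meg3* was at 0.57 and *Phlda2* at 0.67. *Cct3*, a chaperonin subunit gene, had 7624, 19447, 10137 and 16213 reads and a ratio of -0.81, in a chaperone list of median -0.03 (0.00 corrected). Among 30 actin and adhesion genes (median 0.10, or -0.02 corrected), *Cdh1*, which encodes E-cadherin, had 26182, 17667, 23986 and 15971 reads and a ratio of 0.57.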
